A study of Mus musculus with 3 samples.

Results

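The genes described here are 7 targets of the transcription factor p53 in pancreatic beta cells: Cdkn1a, Ccng1, Mdm2, Phlda3, Trp53inp1, Eda2r and Tnfrsf10b. They were matched by gene symbol in the authors' beta-cell table of genes listed as different between genotypes, where all 7 stood among 8193 listed genes. None of the 7 was among the 186 genes listed for alpha cells or the 231 listed for delta cells, so their levels in those cells were not analysed here. The 7 genes were chosen by their ratios of KO-labelled over control in these same beta cells, as p53 targets that were higher, so their ratios are given as a description, with no test.

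The islets came from 2 mice labelled IRE1[alpha][beta]-/-, called KO-labelled here, and 1 mouse labelled IRE1[alpha]fl/fl, the control. All mice were NOD/ShiLtJ, a strain that develops autoimmune diabetes spontaneously, and were 5 weeks old. All had been given tamoxifen (10 mg/ml, on 5 consecutive days), the drug that switches on the Cre recombinase, so the control shares the tamoxifen and the floxed alleles. The promoter that drives the Cre, and whether the control carried it, are not known from the labels. IRE1α is a sensor of unfolded proteins in the endoplasmic reticulum. Hand-picked islets were kept overnight in culture and dissociated before single cells were captured in droplets. Each captured transcript carries a unique molecular identifier (UMI), and the deposited values are mean UMIs per cell.

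p53 is a transcription factor that is kept scarce by the ubiquitin ligase Mdm2 and builds up after DNA damage, ribosome stress or oncogene signals. It then switches on genes that halt the cell cycle, restrain growth signals, repair DNA or favour cell death, together with its own inhibitors, which close a feedback loop. In beta cells, which divide rarely in the adult, the arrest gene Cdkn1a and the AKT inhibitor Phlda3 are known p53 targets. Phlda3 is known as a suppressor of pancreatic neuroendocrine tumours. Several p53 targets also respond to other inputs, and the human counterpart of Tnfrsf10b is known to be induced by the stress factor CHOP.

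Sequences just upstream of annotated transcript starts are shown because the 7 genes are named for a shared regulator. RefSeq windows (GRCm38.p6, the build also called mm10) of 250 bases before to 50 bases after a start were matched by symbol for 5 of the 7 genes, 6 windows in all, as Cdkn1a has 2 starts that lie 2790 bases apart. Each window was searched on both strands for the p53 recognition decamer (10 bases) and for the letters CATGNNNNNNCATG. These letters are called paired cores here: they have the spacing of the cores of 2 adjoining decamers, without the decamers' other letters. Both motifs read the same on either strand, and a match to the paired cores can overlap a match to the decamer, as it does in Cdkn1a. The decamer occurred in 3 of the 6 windows and in 8.36% of all 32851 mouse windows of this length. The paired cores occurred in 1 of the 6, at the distal start of Cdkn1a, and in 0.712% of all windows. The proximal Cdkn1a window and those of Phlda3 and Eda2r held neither set of letters. Below, a stretch of 100 bases around each match is printed in the direction of transcription. Capitals mark the paired cores in Cdkn1a (first capital 48 bases before the distal start, chr17:29090869-29090968, plus strand), and the decamer in Ccng1 (185 bases before the start, chr11:40755415-40755514, minus strand) and Mdm2 (186 bases before the start, chr10:117710888-117710987, minus strand). A match describes these letters and is not evidence of binding.
Cdkn1a, distal start: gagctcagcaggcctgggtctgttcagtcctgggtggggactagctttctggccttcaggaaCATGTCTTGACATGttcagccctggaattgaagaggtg
Ccng1: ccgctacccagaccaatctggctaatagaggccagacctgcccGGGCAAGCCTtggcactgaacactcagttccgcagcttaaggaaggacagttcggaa
Mdm2: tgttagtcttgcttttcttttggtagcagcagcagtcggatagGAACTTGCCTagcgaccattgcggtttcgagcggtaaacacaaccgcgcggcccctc

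The beta-cell values rest on 815 KO-labelled cells, in which the authors had pooled both mice, and on 829 control cells. Listed genes summed to 24796 UMIs per KO-labelled cell and 31552 per control cell. With 1 control mouse and 1 pooled column there was no spread between mice to set a difference against, and intervals in brackets (95%) cover counting error only. The targeted gene Ern1 had 0.742 UMIs per KO-labelled cell and 0.509 per control cell, so it did not read lower under the KO label (the deleted stretch of Ern1 and the sequenced end of its transcripts are not known from the labels). Beta-cell transcripts were abundant in both groups: Ins2 had 9146 UMIs per KO-labelled cell and 13373 per control cell, and Ins1 had 3281 and 6900. Of 13 beta-cell markers, however, 8 were listed, and 7 of these were lower in KO-labelled cells. By at least 1.5-fold, 5 were lower, against 2.47% of all listed genes, among them Mafa (ratio 0.364), Slc2a2 (0.439) and Ucn3 (0.557). The 5 markers not listed, such as Pdx1 and Nkx6-1, were not analysed here. Transcripts of other cells were present as well: 8 of 11 alpha, delta and PP-cell markers were listed and summed to 284 UMIs per KO-labelled cell and 110 per control cell. The 3 of 5 listed red-cell markers summed to 22.6 and 0.0639, the 5 of 14 acinar and duct markers to 70.5 and 38.4, the 6 of 10 mesenchymal and endothelial markers to 0.552 and 0.235, and the 4 of 13 immune markers to 0.564 and 0.641, in the same order. Among the immune markers, Cd68 was lower (0.0577 UMIs per KO-labelled cell and 0.409 per control cell), while Cd74, Cd79a and Lyz2 were higher, at ratios of 1.96, 2.76 and 10.2; Ptprc and Cd3e were not listed. Of the acinar and duct sums, Spp1 alone supplied 59.8 UMIs per KO-labelled cell and 32.6 per control cell. Of the 14 acinar and duct markers, 9 were not listed, among them Prss2, Cpa1 and Krt19. Reg3b of acinar cells and Col1a1 of fibroblasts had no UMI in control cells. The part of such transcripts, or of the lower beta-cell markers, in the values of the 7 genes was not tested.

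All 7 p53 targets had more UMIs per cell in KO-labelled than in control beta cells. Their ratios of KO-labelled over control ran from 1.66 for Mdm2 to 6.89 for Eda2r, with a median of 3.23. Summed over the 7 genes, there were 10.4 UMIs per KO-labelled cell and 4.18 per control cell, a ratio of 2.49 [2.39 to 2.59]. Of every 10000 listed UMIs, 4.19 came from the 7 genes in KO-labelled cells and 1.32 in control cells. Most listed UMIs in both groups were those of Ins1, Ins2 and Iapp, which were lower in KO-labelled cells (ratios 0.475, 0.684 and 0.525). These shares therefore also move with the fall in those transcripts. Cdkn1a alone supplied 50.0% of the summed UMIs in KO-labelled cells and 57.3% in control cells. All 7 passed a fold of 1.5, the size used in place of a test, as did 45.7% of all listed genes, and 6 of the 7 passed a fold of 2, as did 19.8% of all listed genes. Since most of the table ran the same way (95.0% of listed genes were higher in KO-labelled cells, and 2.47% were lower by at least 1.5-fold), the shared direction by itself sets the 7 genes apart little. The authors' deposited table gives adjusted p-values from 1.13e-61 to 4.16e-06 for them, computed over cells, which are not replicates.

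**Figure D1:**
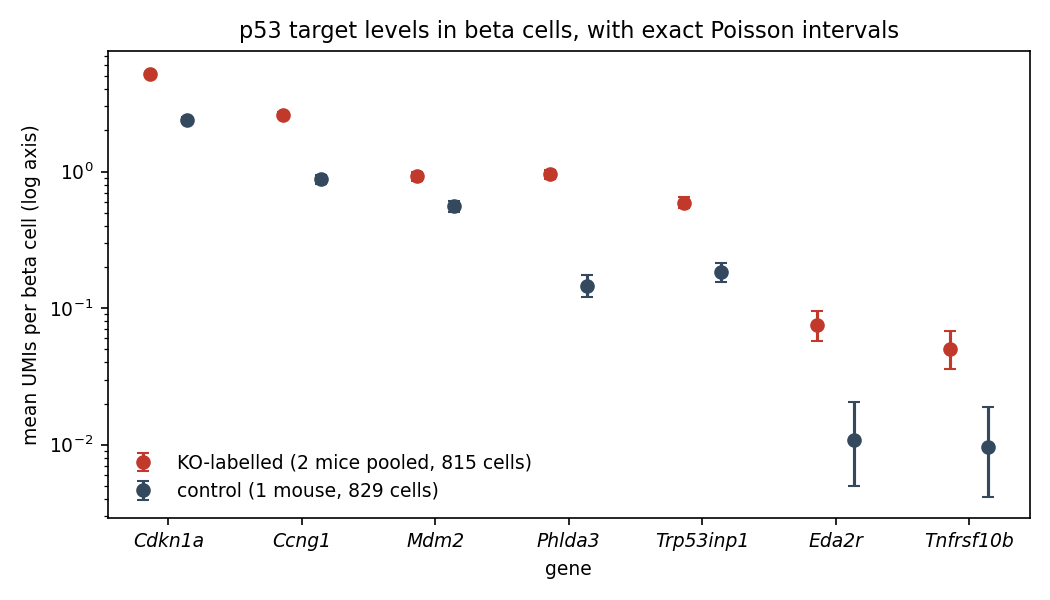
Mean UMIs per beta cell (log axis) of the 7 p53 targets in KO-labelled cells (red, 2 mice pooled) and control cells (dark, 1 mouse), with exact Poisson 95% intervals that cover counting error only. The red point lies above the dark one for every gene, with the widest intervals for Eda2r and Tnfrsf10b, which rest on 61 and 41 UMIs in KO-labelled cells and on 9 and 8 in control cells.

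Among the genes of cell-cycle arrest and feedback, Ccng1 differed more than Cdkn1a, and Mdm2 least of the 7. Cdkn1a encodes p21, an inhibitor of cyclin-dependent kinases that carries out the p53-dependent arrest. It had 5.20 [5.04 to 5.36] UMIs per KO-labelled cell and 2.39 [2.29 to 2.50] per control cell, a ratio of 2.17 [2.06 to 2.29]. This was the largest gain of the 7 in UMIs, at 2.81 more per cell. The gene (ENSMUSG00000023067) spans mm10 chromosome 17, 29090976 to 29100727, on the plus strand, where an unconfirmed gene model on the opposite strand overlaps it, the only overlap found for the 7 genes in GENCODE. Its printed stretch with the paired cores lies before the distal of its 2 starts, and which start was used cannot be read from these values.

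Ccng1 encodes cyclin G1, which brings a phosphatase to Mdm2 and so takes part in the feedback on p53. It had 2.60 [2.50 to 2.72] UMIs per KO-labelled cell and 0.877 [0.814 to 0.943] per control cell, a ratio of 2.97 [2.73 to 3.24]. Ccng1 (ENSMUSG00000020326) lies on chromosome 11, 40748552 to 40755311. Mdm2 (ENSMUSG00000020184, chromosome 10, 117688875 to 117710758) encodes the ligase that marks p53 for degradation and is itself induced by p53. It had 0.925 [0.860 to 0.994] UMIs per KO-labelled cell and 0.559 [0.509 to 0.612] per control cell. Its ratio of 1.66 [1.47 to 1.86] was 1.14 times the median ratio of all listed genes, the smallest such excess of the 7. The counting intervals of the ratios of Ccng1, Cdkn1a and Mdm2 did not overlap one another.

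Phlda3 stood farthest of the 7 from other listed genes of its level. It encodes a protein that is little more than a pleckstrin-homology domain, which competes with the kinase AKT for membrane lipids and so restrains AKT signalling. Phlda3 had 0.953 [0.888 to 1.02] UMIs per KO-labelled cell and 0.146 [0.121 to 0.174] per control cell, a ratio of 6.53 [5.39 to 7.98] over 777 and 121 UMIs. At most 95.3% of KO-labelled cells and 14.6% of control cells can have held a Phlda3 UMI, as there were no more UMIs than that. The gene (ENSMUSG00000041801) lies on chromosome 1, 135766119 to 135769136.

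Trp53inp1 encodes a stress-induced nuclear protein that, in human cells, promotes the phosphorylation of p53 and the choice of cell death. It had 0.593 [0.541 to 0.648] UMIs per KO-labelled cell and 0.183 [0.155 to 0.215] per control cell. The ratio was 3.23 [2.69 to 3.90], close to that of Ccng1, and the counting intervals of the ratios of Trp53inp1 and Ccng1 overlapped. Trp53inp1 (ENSMUSG00000028211) lies on chromosome 4, 11156431 to 11174379.

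The 2 receptor genes had large ratios that rest on few UMIs. Eda2r encodes a receptor of the tumour necrosis factor (TNF) family whose ligand is a form of ectodysplasin. There were 61 Eda2r UMIs in KO-labelled cells and 9 in control cells, or 0.0748 [0.0573 to 0.0961] and 0.0109 [0.00496 to 0.0206] per cell, a ratio of 6.89 [3.40 to 15.8]. Tnfrsf10b encodes the mouse death receptor for the ligand TRAIL. It had 41 UMIs in KO-labelled cells and 8 in control cells, or 0.0503 [0.0361 to 0.0682] and 0.00965 [0.00417 to 0.0190] per cell, a ratio of 5.21 [2.41 to 12.9]. An Eda2r UMI can have been present in at most 7.48% of KO-labelled and 1.09% of control cells, and a Tnfrsf10b UMI in at most 5.03% and 0.965%. At these counts the order of Phlda3, Eda2r and Tnfrsf10b by ratio could not be told, because their intervals overlap. Eda2r (ENSMUSG00000034457) lies on chromosome X, 97333840 to 97377216, and Tnfrsf10b (ENSMUSG00000022074) on chromosome 14, 69767472 to 69784411, so the 7 genes sit on 7 chromosomes.

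Ratios in this table went with level, with larger ratios among genes of lower control level. Each gene was therefore set against all listed genes whose control level lay within 1.5-fold of its own. The largest adjusted p-value of any listed gene, computed by the authors over cells, was 0.00998. A gene of few UMIs reaches such a value only with a large ratio, so listed neighbours do not stand for all expressed genes. The part of this selection in the trend was not tested. None of the 1620 genes near the level of Phlda3 had as high a ratio, and their median was 1.54. Of 1340 genes near Ccng1 (median 1.28), 4 reached its ratio: Cd81, 8430408G22Rik, Zfp36 and Enho. Of 1791 near Trp53inp1 (median 1.49), 12 did, or 0.670%. Of 499 near Cdkn1a (median 1.17), 10 did, or 2.00%, with Gpx3 (6.52), S100a6 (3.38) and Hist1h1c (3.11) highest. Next came the immediate early genes Jun (2.85), Fos (2.57) and Ier2 (2.41), which also respond to tissue dissociation. The part of that response in the Cdkn1a value was not tested, and the genes named here among the neighbours were chosen after their values were seen.

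For Mdm2, Eda2r and Tnfrsf10b a larger share of neighbours reached the same ratio. For Mdm2, 205 of 1716 genes (11.9%; median 1.32) had a ratio at least as high. Near Eda2r the median of 261 listed genes was already 3.50, and 16 of them (6.13%) reached its ratio, a share that was 3.17%, below the 3.78% of Cdkn1a, when neighbours were matched on the mean of both groups. Near Tnfrsf10b the median of 231 genes was 3.56, and 40 of them (17.3%) reached its ratio. Read against their level, the ratio of Phlda3 was 4.23 times the median of its neighbours, that of Ccng1 2.32, of Trp53inp1 2.18, of Eda2r 1.97, of Cdkn1a 1.85 and of Tnfrsf10b 1.46 times, with Mdm2 lowest. The ratios of the receptor genes, among the 3 highest of the 7, were thus much nearer to what listed genes of that level showed than the ratio of Phlda3 was.

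**Figure D2:**
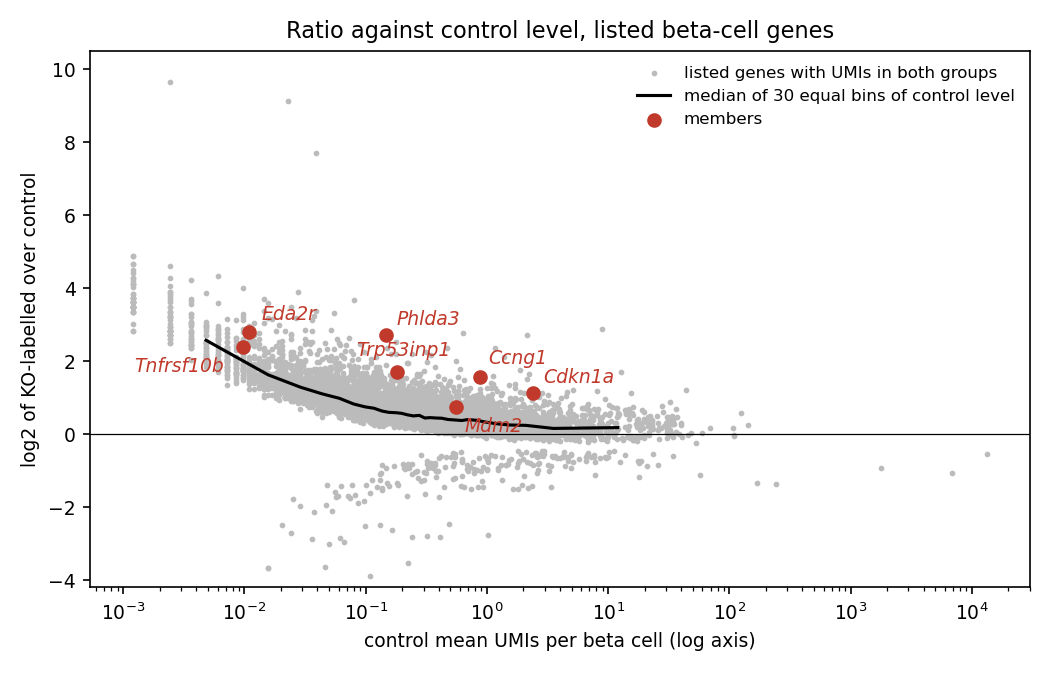
Log2 ratio of KO-labelled over control against control mean UMIs per beta cell (log axis) for listed genes with UMIs in both groups (grey), with the median over 30 equal bins of control level (black line) and the 7 p53 targets (red). Phlda3 (6.53, against a neighbours' median of 1.54) lies at the upper edge of the cloud, while Tnfrsf10b (5.21, against 3.56) and Mdm2 (1.66, against 1.32) lie closer to the line.

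The size of the 7 ratios moved with the scaling. Their direction could not reverse: each scaling multiplied all ratios by 1 factor, too close to 1 to take the lowest (1.66, Mdm2) below 1. A pseudocount added to both groups cannot reverse a direction either. Control cells held more listed UMIs, so scaling to the listed total raised every ratio 1.27-fold (Phlda3 8.31, Mdm2 2.11). Scaling to the total without Ins1, Ins2 and Iapp lowered every ratio to 0.831 of its value, which put Mdm2 at 1.38. Centring on the median ratio of all listed genes (1.45) left Phlda3 at 4.49, Ccng1 at 2.04, Cdkn1a at 1.49 and Mdm2 at 1.14; 5 of the 7 then passed a fold of 1.5, as did 16.0% of all listed genes. A pseudocount of 0.0519 UMIs per cell, the 10th percentile of nonzero means, brought Eda2r to 2.02 and Tnfrsf10b to 1.66 but left Cdkn1a at 2.15 and Phlda3 at 5.08.

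**Figure D3:**
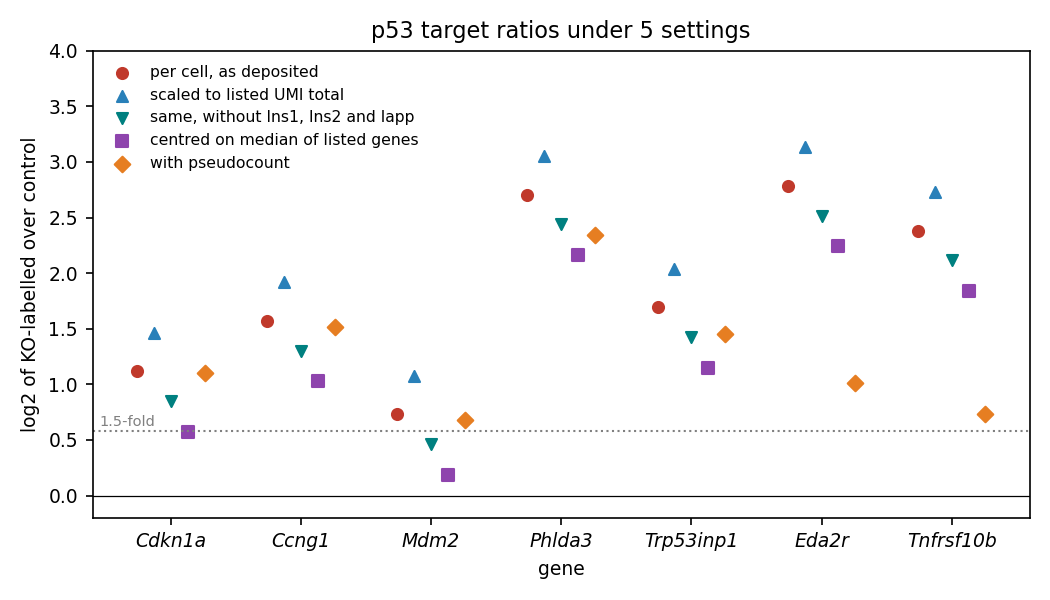
Log2 ratio of KO-labelled over control for each of the 7 p53 targets per cell as deposited (red), after 3 scalings and with a pseudocount, with a dotted line at a fold of 1.5. Every point lies above 0, the centred value of Mdm2 is the lowest (ratio 1.14), and the pseudocount moves Eda2r and Tnfrsf10b most (to 2.02 and 1.66).

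Other known p53 targets were higher too. Of 50 further targets, 33 were listed, and all 33 had more UMIs per KO-labelled cell, as did 95.0% of all listed genes. A fold of 1.5 was passed by 25 of the 33, against 45.7% of all listed genes, and none was lower by that fold, against 2.47%. Their median log2 ratio was 0.96, against 0.54 for all listed genes, and 26 of the 33 lay above the median of listed genes at their own control level. The 17 not listed, such as Pmaip1, Ddb2, Plk2, Apaf1 and Dram1, were not analysed here. Among the death genes, Bbc3, which encodes the BH3-only protein PUMA, had 0.502 UMIs per KO-labelled cell and 0.179 per control cell, a ratio of 2.81 [2.32 to 3.42]. Bax, the pore-forming effector, had 6.07 and 3.96, a ratio of 1.53 [1.47 to 1.60]. The death receptor gene Fas was at 1.76 [1.40 to 2.24] and Perp, which encodes a tetraspan membrane protein, at 1.58 [1.26 to 1.98], values that 27.4% and 41.9% of genes at their levels reached.

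Among arrest, repair and feedback genes, the antiproliferative gene Btg2 had 6.71 UMIs per KO-labelled cell and 3.20 per control cell, a ratio of 2.10 [2.00 to 2.20]. Zmat3, which encodes an RNA-binding protein, was at 2.07 [1.83 to 2.35], and the repair gene Xpc was at 2.36 [1.82 to 3.09]. Ppm1d, a phosphatase gene that acts back on p53 as Mdm2 does, was at 1.94 [1.39 to 2.74]. Of genes at their levels, 1.95% reached the ratio of Btg2, 3.26% that of Zmat3, 10.3% that of Xpc and 43.1% that of Ppm1d. Sesn1 was at 1.71 [1.15 to 2.58], below the median of 2.06 of genes at its level, of which 80.2% reached its ratio. Trp53cor1, the long noncoding RNA also called lincRNA-p21, is transcribed next to Cdkn1a and was at 3.43 [2.33 to 5.15] over 118 UMIs in KO-labelled cells and 35 in control cells. Gdf15, a secreted stress cytokine that is also a target of ATF4 and CHOP, was at 4.29 [3.45 to 5.38]. The highest ratio, 19.3 [4.99 to 165] for the mitotic gene Psrc1, rests on 38 and 2 UMIs, and listed genes at its level had a median of 8.39. At the low end, Gadd45a was at 1.12 (with an interval that includes 1), Rap2b at 1.22 [1.04 to 1.44] and Tigar, whose product limits glycolysis, at 1.22 [1.03 to 1.45], all below the median of listed genes. Btg2, Xpc, Ppm1d and the order of the targets were added to the genes named by rule after their values were seen. Among these 40 listed targets, Eda2r, Phlda3 and Tnfrsf10b were among the 4 highest by ratio, and Mdm2 was 29th. The overlapping intervals of the 3 do not settle their order. Nor do they settle the place of Eda2r [3.40 to 15.8] and Tnfrsf10b [2.41 to 12.9] above Gdf15 [3.45 to 5.38].

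**Figure D4:**
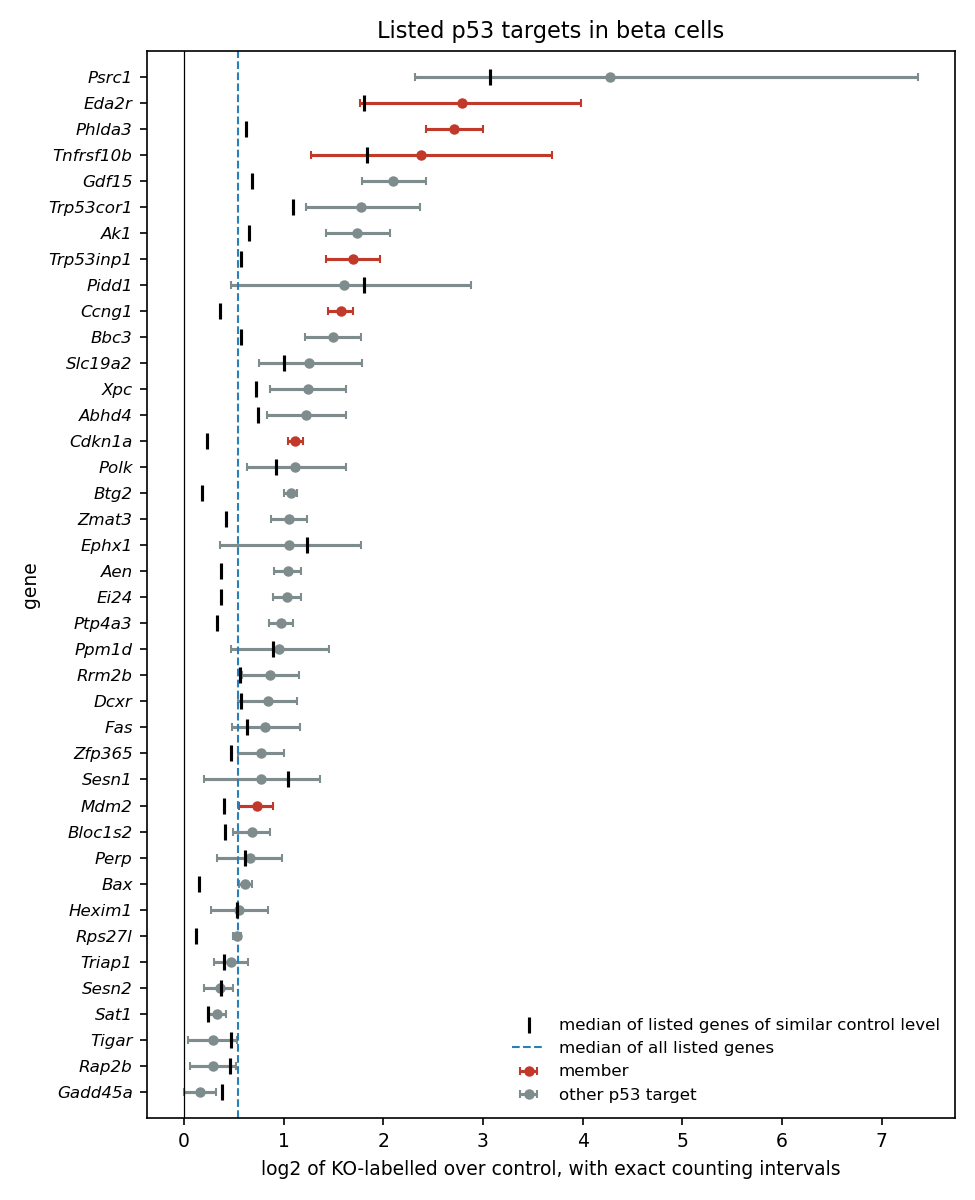
Log2 ratio of KO-labelled over control, with exact 95% counting intervals, for the 7 members of the set (red) and 33 other listed p53 targets (grey) in beta cells, with black ticks at the median of listed genes of similar control level and a dashed line at the median of all listed genes (0.54). Phlda3, Gdf15, Trp53inp1, Ccng1 and Bbc3 lie far to the right of their ticks, while Gadd45a, Rap2b and Tigar lie to the left of theirs.

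A list of Trp53 and genes grouped with it as regulators, called the regulator list here, had a lower median ratio than the p53 targets. It also holds Trp53i13 (1.21) and Trp53inp2 (1.16), whose action on p53 was not checked. Of its 30 genes, 21 were listed, all with more UMIs per KO-labelled cell (95.0% of all listed genes). A fold of 1.5 was passed by 8 of them (45.7% of all listed genes). Their median log2 ratio of 0.46 was below that of all listed genes, while 14 of the 21 lay above the median of listed genes at their own control level. Trp53, which encodes p53, had 0.628 UMIs per KO-labelled cell and 0.374 per control cell, a ratio of 1.68 [1.46 to 1.94] that 13.4% of genes at its level reached. Mdm4, the partner of Mdm2, was at 1.45 [1.27 to 1.66], and Npm1, a nucleolar protein gene, at 1.74 [1.65 to 1.83]. The ligase gene Rchy1 was at 1.09 [1.00 to 1.19]. The kinase genes Atm, Chek1 and Chek2 were not analysed here.

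Relatives and partners of the 7 genes gave a mixed picture, on lists that share some genes with the p53 targets, such as Fas, Bax and Bbc3. Of 7 other cyclin-dependent kinase inhibitors, 2 were listed: Cdkn1b at 1.39 [1.17 to 1.65] and Cdkn2b at 1.79 [1.53 to 2.09]. Both lay under the 2.17 of Cdkn1a, which had been chosen as higher in these same cells. The 5 not listed, Cdkn2a among them, were not analysed here. Among 15 listed cyclins and their partners, 2 passed a fold of 1.5, against 45.7% of all listed genes, led by the cyclin D1 gene Ccnd1 at 2.66 [2.26 to 3.12], while Cdk4 was at 0.978 [0.909 to 1.05]. Of 31 cell-cycle genes that p53 is known to repress through the DREAM complex, 4 were listed, from Pcna at 1.32 [1.07 to 1.64] to Mcm7 at 2.20 [1.56 to 3.14]. Of 11 listed genes of the AKT pathway, on which the Phlda3 protein acts, none passed a fold of 1.5 in either direction, against 45.7% of all listed genes higher and 2.47% lower; they ran from Tsc2 at 1.13 [0.950 to 1.35] to Foxo3 at 1.39 [1.22 to 1.59].

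Of 12 listed TNF-family receptors and death receptor adaptors other than Eda2r and Tnfrsf10b, 9 were higher by a fold of 1.5, against 45.7% of all listed genes, and 1 was lower, against 2.47%. Tnfrsf9, a costimulatory receptor gene, was the lower one at 0.391 UMIs per KO-labelled cell and 0.725 per control cell, a ratio of 0.540 [0.470 to 0.619]. Tnfrsf11b, which encodes the decoy receptor osteoprotegerin, was at 2.24 [1.91 to 2.63]. The ligand genes Tnfsf10 (TRAIL) and Eda were not analysed here. Of 16 listed BCL2-family and caspase genes, 6 passed a fold of 1.5, against 45.7% of all listed genes. Of the 16, 8 lay above the median of listed genes at their own control level. The BH3-only genes Bik at 4.27 [3.17 to 5.84] and Bmf at 4.12 [2.93 to 5.89] were highest. Of 6 listed genes on a list of CHOP, related stress factors and CHOP targets, 3 passed a fold of 1.5, against 45.7% of all listed genes. They were Gdf15 (4.29), Atf3, which answers to many stresses, at 3.94 [3.44 to 4.53], and Ppp1r15a at 1.68 [1.59 to 1.79]. The CHOP gene Ddit3 had a ratio of 1.26 [1.19 to 1.33], Trib3 1.18 [1.10 to 1.27] and Atf4 1.03 [0.992 to 1.07]. The part of CHOP in the Tnfrsf10b value was not tested.

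**Figure D5:**
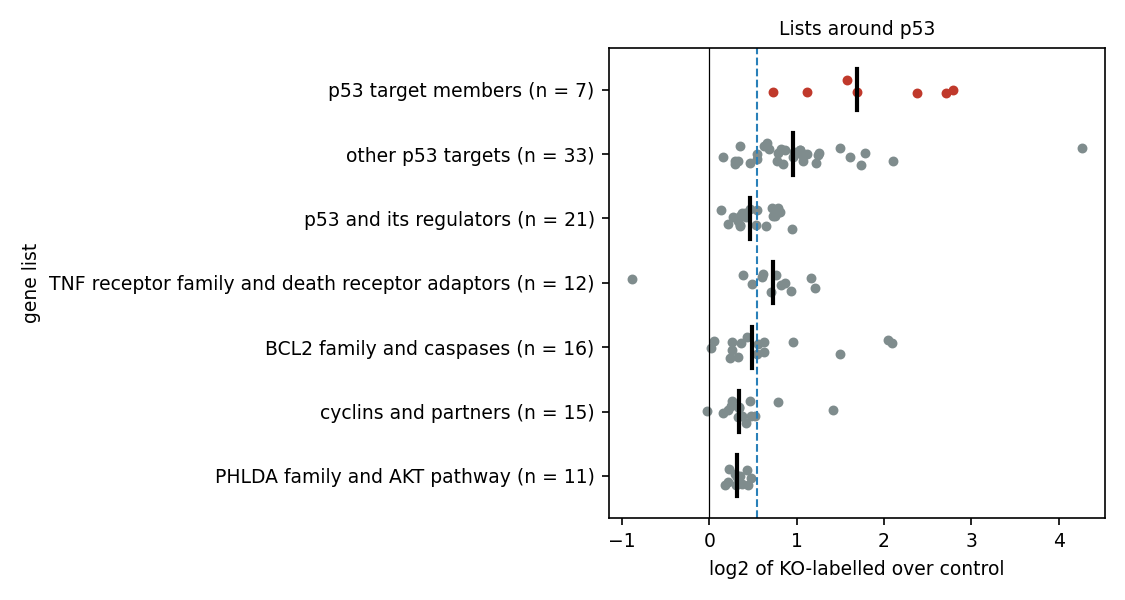
Log2 ratio of KO-labelled over control for the listed genes of 7 lists around p53 in beta cells, 1 point per gene (spread vertically for sight only), with a black bar at each list's median and a dashed line at the median of all listed genes (0.54). The medians of the 7 p53 targets (1.69), the 33 other targets (0.96) and the TNF receptors (0.73) lie to the right of the dashed line. Those of the regulator list (0.46), the BCL2 family (0.48), the cyclins (0.34) and the AKT pathway (0.32) lie left of it.

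The listed genes nearest to Phlda3 in both ratio and control level were found by distance on the 2 log2 scales, over 2 columns of beta-cell values. They were Fam43a (ratio 5.70, distance 0.35), the ubiquitin hydrolase gene Uchl1 (5.09, 0.36), the acute-phase gene Orm1 (4.60, 0.52), the stem-cell surface marker gene Prom1 (4.56, 0.59) and Gdf15 (4.29, 0.66). Of these 5, Gdf15 was the 1 gene that had also been placed among the p53 targets.

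Outside beta cells only 2 further p53 targets were listed, both in delta cells. The share of all listed delta-cell genes that ran the same way is not given here. Of 87 genes looked for (the 7 targets, the 50 others and the 30 of the regulator list), 0 were listed for alpha cells and 3 for delta cells. In delta cells Btg2 had 6.98 and 8.77 UMIs per cell in the columns of the 2 KO-labelled mice and 3.32 in the control mouse, so both KO-labelled values lay above the control. The mean was 7.87 ± 1.27 (SD, n = 2), 2.37 times the control, where in beta cells the ratio was 2.10. Gadd45a had 0.522 and 0.500 UMIs per cell in KO-labelled delta cells and 0.267 in control delta cells, a mean of 0.511 ± 0.0154 (SD, n = 2) and 1.91 times the control, where in beta cells the ratio was 1.12. Rpl11, whose product binds Mdm2, was at 23.4 and 22.0 against 21.9. Btg2 and Gadd45a are also known to respond quickly to cell stress of other kinds, and whether the ratios differ between cell types was not tested.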

How the data were processed

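The authors deposited, for each islet cell type, a table of genes listed as different between genotypes, with a signal per column, in mean UMIs per cell. Per the submitters' processing notes, Cell Ranger 3.0.0 and mm10 were used; cell filters, doublet and free-RNA handling, cell typing and the authors' test are not stated there. The deposited p-values and q-values come from cells. Each column times 1 whole number of cells gave whole UMIs (within 0.001, for at least 99.99% of values), which gave the cell numbers and UMI counts. Values were not rescaled for depth. The alpha-cell header is shifted by 1 column, and 13 gene names turned into dates were restored through identifiers.

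Ratios of KO-labelled over control used no pseudocount, and a group with no UMI was set at 3 UMIs over its cells. Ratio intervals are exact (Clopper-Pearson, from the KO-labelled share of UMIs) and level intervals exact Poisson, both at 95%; with no replicate mice per column they cover counting error only. A fold of 1.5 stood in place of a test. Genes of similar level had a control mean within 1.5-fold. The ratio and interval code was tested on simulated data. Python 3.11.15, pandas 2.3.3 and scipy 1.17.1 were used, with GENCODE M21 for coordinates.

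The 7 genes and the 16 lists of genes were chosen with earlier results of these data known. Named are all 7 genes, per list the 3 highest and 3 lowest ratios with at least 20 UMIs, and a short set named wherever listed; exceptions are stated, and Ak1, Aen and Ei24 below were also chosen after their values were seen. Not every gene the rule allows is printed. The alternatives were 3 scalings, a pseudocount, a higher fold (2), the removal of low genes and other definitions of similar level. The 2 KO-labelled columns of delta cells were not matched to particular mice of the labels.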

Additional observations from a re-analysis of the deposited data

How the results depend on the processing

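All 28 alternative values of the 7 genes' ratios kept the direction, which the form of these alternatives fixed for ratios of this size. Of the 28, 25 stayed at a fold of 1.5 or more. By leave-one-out of a KO-labelled mouse in delta cells, Btg2 ran from 2.10 to 2.64 and Gadd45a from 1.87 to 1.95 times the control; in beta cells the mice were pooled, so none could be left out. The 3 scalings were centring on the median, scaling to the listed total and scaling without Ins1, Ins2 and Iapp. In that order, the median log2 ratio was 1.15, 2.04 and 1.42 for the 7 genes and -0.08, 0.81 and 0.19 for the regulator list. For the other p53 targets it was 0.42 and 1.31 under the first 2 of these. Centring also turned the medians of the BCL2 family (-0.06), the cyclins (-0.20) and the AKT pathway (-0.22) below 0, by its construction. Of 8193 listed genes, 3741 were higher by 1.5-fold as reported. This number was 1314, 6816 and 2104 under the same 3 scalings. It was 2171 with the pseudocount, 1626 at a fold of 2 and 1043 with the filter on low values. That of lower genes, 202 as reported, was 343 after centring and 112 after scaling to the listed total. At a fold of 2 it was 99, and with the filter 112. Of the 33 other p53 targets, 25 passed as reported. After centring 9 passed, against 16.0% of all listed genes, and at a fold of 2 it was 15, against 19.8%. With the filter, which also takes low genes out of the 33, it was 11. On the regulator list, 8 of 21 genes passed as reported, against 3741 of all 8193 listed genes. Under the 3 scalings 0, 19 and 1 passed, against 1314, 6816 and 2104 of all listed genes. At a fold of 2 it was 0, against 19.8% of all listed genes, and 3 with the filter, which again shortens the list. How many genes the filter left on either list is not given here. Matching on the mean of both groups in place of the control left 0.0515% of similar genes at or above Phlda3, 0.614% for Ccng1, 3.78% for Cdkn1a, 3.17% for Eda2r, 0.939% for Trp53inp1, 13.7% for Mdm2 and 14.3% for Tnfrsf10b. No paired analysis was possible because the control is 1 mouse and the beta-cell values of the KO-labelled mice were pooled.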

Other observations

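Among genes not placed on any list, Trp53i11, also named for p53, had 0.850 UMIs per KO-labelled cell and 0.220 per control cell, a ratio of 3.87 [3.29 to 4.59]; it was chosen after its value was seen. Further p53 targets were high for their level: Ak1, the adenylate kinase gene, at 3.33 [2.68 to 4.18], a value that 1.14% of genes of similar level reached, the nuclease gene Aen at 2.06 [1.87 to 2.26] (2.17%), and Ei24 at 2.05 [1.86 to 2.26] (2.43%).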
